A study of Mus musculus with 12 samples.

Results

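The 8 genes described here encode the MHC class II pathway of antigen presentation: H2-Aa, H2-Ab1, H2-Eb1, Cd74, H2-DMa, H2-DMb1, H2-Oa and Ciita. They were taken by symbol from a table of 35241 genes measured in the distal colon of 12 mice, and all 8 were found. Professional antigen-presenting cells (B cells, dendritic cells and macrophages) load peptides from engulfed protein onto class II molecules and show them to CD4+ T cells. The α and β chains assemble with the invariant chain, which fills the peptide groove until it is cut away, and H2-DM then exchanges the remaining fragment for peptide while H2-O holds H2-DM back. The transactivator Ciita switches the whole set on, and in the gut wall the genes are best known from lymphoid follicles, from dendritic cells and macrophages of the lamina propria and, under interferon-γ, from the epithelium.

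Full-thickness distal colon was compared between 6 Spry2IEKO mice, in which both floxed Spry2 alleles were crossed to a Cre transgene under the villin (Vil1) promoter so that Sprouty2 is lost from intestinal epithelium, and 6 Spry2FF littermates that carry the same floxed alleles without Cre. Each genotype held 3 mice of litter A and 3 mice of litter B, and the labels gave the age as 6 weeks in one place and 8 weeks in another. Of the Spry2IEKO mice 5 were female, against 3 of the Spry2FF mice. Since Cre acted only in epithelium and the whole wall was homogenized, a level here mixes epithelial, muscle, stromal and immune RNA, and fewer cells of a type cannot be told apart from less RNA per cell.

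Spry2 itself was 20 ± 1.59 in Spry2IEKO and 27.7 ± 3.29 in Spry2FF mice (SD, n = 6 each), with no overlap between genotypes and an exact permutation p of 0.00216, the smallest that all splits of the mice into 6 and 6 allow. Its log2 change of -0.45 had an adjusted p of 0.16 in limma. Levels are TPM values (transcript abundance corrected for length), summed over the transcripts of a gene. Totals ran from 918816 to 1069158 per mouse. A further scaling between mice was inferred, and the paper does not describe it. Epithelial markers identified the tissue in every mouse, with Epcam at 999 ± 62.0 in Spry2IEKO and 1058 ± 68.8 in Spry2FF mice (SD, n = 6 each), and smooth muscle genes summed to between 1588 and 3756. Fat genes summed to between 0.157 and 167.

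Before any comparison, 5 mice stood apart from the other 7. Cd79a, a subunit of the B cell receptor, was 85.5 in Spry2IEKO mouse 4, 42.4 in Spry2FF mouse 3, 40.1 in Spry2FF mouse 10, 29.9 in Spry2IEKO mouse 11 and 23.2 in Spry2IEKO mouse 6. It lay between 0.0832 and 2.6 in the remaining mice, with a median of 1.47. The gap between 2.6 and 23.2 was 8.91-fold and held no mouse. The 5 mice came from both genotypes (3 Spry2IEKO, 2 Spry2FF) and from both litters (3 of litter A, 2 of litter B). The other 8 of the 9 B cell markers and 6 of 7 germinal centre and follicle markers divided the mice the same way, where 2.19% of the 15880 genes tested did, among them the follicle chemokine Cxcl13 at 28.1 to 106 against 0.992 to 8.03. The summed B cell markers spanned 117 to 437 in the 5 mice and 2.32 to 18.2 in the 7.

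Promoters of the class II genes share a short module that the pathway is known for: an X box, bound by the RFX complex, and a Y box, bound by NF-Y, to which Ciita is recruited. The stretches below, from the RefSeq promoter windows on GRCm38.p6 (250 bases before to 50 after the start), are shown because they place this module before 3 members that differed widely in level. Capitals mark the X box core (GNAAC) and the Y box (GATTGG).
H2-Aa: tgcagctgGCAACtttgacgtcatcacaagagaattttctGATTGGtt
H2-Eb1: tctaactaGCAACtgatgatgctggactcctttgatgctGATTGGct
H2-Oa: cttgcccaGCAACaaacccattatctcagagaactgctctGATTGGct
They lie at chr17:34287865-34287912 on the minus strand, chr17:34305768-34305814 on the plus strand and chr17:34092295-34092342 on the plus strand. The letters were searched on both strands, the core followed by the Y box after 10 to 40 bases, a rule chosen after these windows had been looked at. Of the 5 members with a window, 4 held the pair, H2-DMb1 being the other one, against 1.69% of all 32851 windows, and the Y box alone was in 16.1%. The gap between core and box was 27 bases in H2-Aa, H2-Oa and H2-DMb1 and 26 in H2-Eb1. Neither of the windows of H2-DMa held the pair, nor did that of Cd79a. H2-Ab1, Cd74 and Ciita were not looked at in this way.

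Of the classical chains, H2-Aa (chr17:34282744-34287823, GRCm38) encodes the α chain of the I-A molecule. It was highest in Spry2IEKO mouse 4 at 499.9, followed by 273 in Spry2FF mouse 10, 272 in Spry2FF mouse 3, 244 in Spry2IEKO mouse 11 and 169.8 in Spry2IEKO mouse 6. In the other 7 mice it ran from 35.9 to 89.7 with a median of 53.7. The 5 mice with high Cd79a were therefore also the 5 highest for H2-Aa, in both genotypes. H2-Ab1 (chr17:34257689-34269419), the β chain of I-A, was 295, 180.1, 162, 153 and 106 in mice 4, 3, 10, 11 and 6 and between 27.8 and 57.4 in the rest. H2-Eb1 (chr17:34305867-34316674), the β chain of I-E, was 324, 188, 179, 165 and 112 in those mice and between 27.9 and 69.7 elsewhere. H2-Ea-ps, annotated as a pseudogene of the I-E α chain, stayed between 0 and 0.223.

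Both I-A chains kept a narrow proportion to each other. The ratio of H2-Ab1 to H2-Aa lay between 0.591 and 0.958, and that of H2-Eb1 to H2-Ab1 between 0.74 and 1.21. Neither ratio differed by genotype (log2 difference -0.03, exact permutation p = 0.807, and -0.02, exact permutation p = 0.903, n = 6 each) beyond the spread between mice. Cd74, the invariant chain gene on chromosome 18, was the most abundant member in every mouse. It was 964 in Spry2IEKO mouse 4, 513 in Spry2FF mouse 3, 469.6 in Spry2FF mouse 10, 418 in Spry2IEKO mouse 11 and 307 in Spry2IEKO mouse 6, against 48.7 to 171 in the other 7. Per mouse, Cd74 was 1.36 to 1.93 times H2-Aa.

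H2-DMa and H2-DMb1 encode the chains of the peptide exchange factor and were lower, with means over the 12 mice of 11.8 and 9.65 against 99.8 to 155 for the classical chains. H2-DMa (chr17:34119541-34139101) was 35.5, 24.0, 20.3, 15 and 12.7 in mice 4, 3, 10, 11 and 6 and between 3.76 and 6.18 in the rest. H2-DMb1 (chr17:34153072-34160230) was 26.7, 18.7, 14.0, 15.6 and 9.3 in the same mice and between 3.12 and 5.72 elsewhere. For H2-DMb1 37.6% of the stretches of 31 bases in its leading transcript also occur in H2-DMb2, so that reads could be divided between the 2 genes, whereas the other members shared at most 2.01% with any other gene. H2-Oa (chr17:34092340-34095234), the α chain of the inhibitor H2-O, was 21.3, 8.64, 9.7, 9.91 and 4.79 in mice 4, 3, 10, 11 and 6. It was at most 1.04 in the other 7 mice and was listed at 0 in Spry2FF mouse 9. Ciita (chr16:10480059-10528418), the transactivator, was 12.7, 6.01, 5.81, 4.76 and 3.86 in those 5 mice and between 0.482 and 1.24 in the rest.

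**Figure D1:**
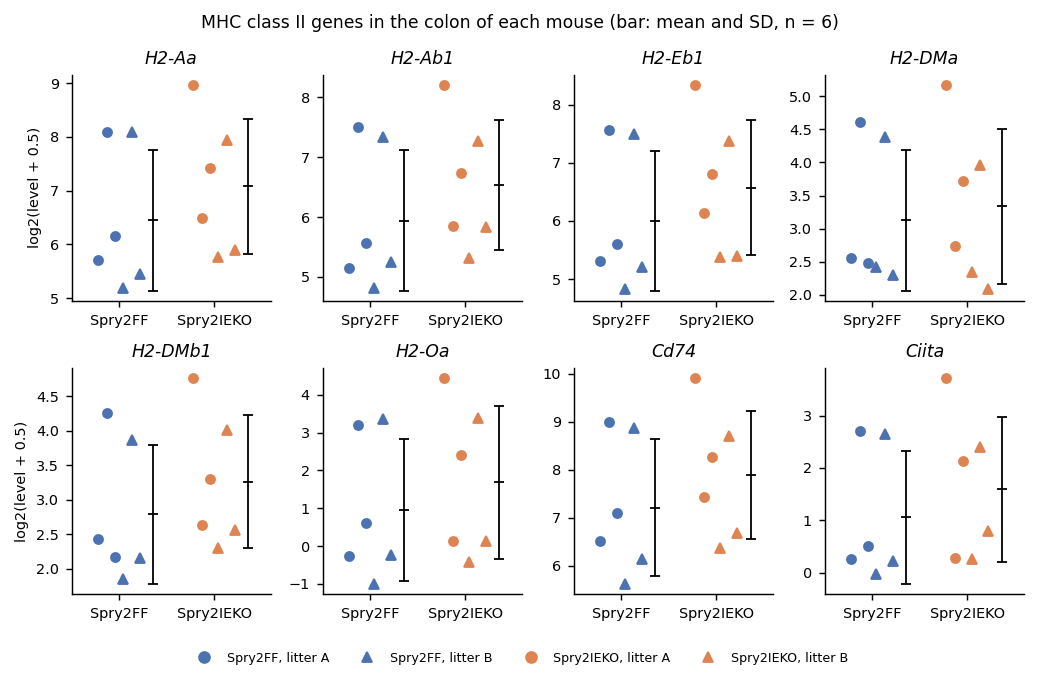
Level of each of the 8 genes in every mouse on the log2(level + 0.5) scale, by genotype (colour) and litter (circles A, triangles B); the black bar is the mean with SD over 6 mice. In every panel 5 mice sit above the other 7, with Spry2IEKO mouse 4 the highest (Cd74 964, H2-Oa 21.3), and the genotypes overlap throughout.

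The order of the mice was nearly the same for each member. Spry2IEKO mouse 4 was the highest of 12 for all 8 genes, Spry2IEKO mouse 6 the fifth for all 8, and Spry2FF mouse 9 the lowest for 7 of 8, H2-DMa being the exception with Spry2IEKO mouse 12 at 3.76. Among the 7 mice with little Cd79a, Spry2IEKO mouse 5 had the highest level of 6 members although its Cd79a was 1.39, below the median of those mice. Together the 8 genes made up 0.0149% of the total level in Spry2FF mouse 9 and 0.214% in Spry2IEKO mouse 4. Cd74 ranked 134 among all genes in the latter mouse and 2945 in the former.

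For every member each of the 5 mice with high Cd79a was above each of the 7 others, 8 of 8 genes, beside the 2.19% of all genes tested that were divided in this way. The sides were set from Cd79a, and no test was made between them. What differed among members was the size of the step. Medians on the 2 sides differed 3.54-fold for H2-DMb1, 4.13-fold for H2-Ab1, 4.17-fold for H2-DMa, 4.38-fold for H2-Eb1, 5.06-fold for H2-Aa and 5.2-fold for Cd74. Ciita differed 8.32-fold and H2-Oa 27.6-fold, beside 27.4-fold for Cd79a itself. These ratios were taken without the 0.5 added on the log2 scale. Medians in the 7 mice were only 0.698 for Ciita, 0.351 for H2-Oa and 1.47 for Cd79a. The size of these steps, and the closeness of H2-Oa to Cd79a, therefore rest on low values. The median ratio over the genes tested was 1.01. Put the other way, the 7 mice held 20.8% to 27.2% of the summed level of the chains, of Cd74 and of H2-DM, but 14.0% of Ciita and 5.49% of H2-Oa, against 4.21% of Cd79a.

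Other class II genes with restricted expression stood with H2-Oa. H2-Ob, the β chain of H2-O, was 12.3 to 58.2 in the 5 mice and 0.296 to 2.34 in the 7, a ratio of medians of 23.9. H2-DMb2, the second β chain gene of H2-DM, was 14.5 to 52.6 against 0.89 to 3.35, a ratio of 13.7. H2-Eb2 was 3.44 to 18.9 against 0.0574 to 0.49. Dendritic cell genes summed to 11.7 to 23.8 in the 5 mice and 3.41 to 9.86 in the 7, without overlap. Of 7 dendritic cell genes tested, Ccr7 (1.61 to 5.14 against 0 to 0.518) and Flt3 (1.16 to 2.01 against 0.0551 to 0.398) were divided without overlap, 2 of 7 beside the same background of 2.19%, while Itgax (CD11c) overlapped at 4.68 to 9.71 against 0.867 to 6.65. Macrophage genes summed to 77.6 to 135 against 38.7 to 114, and 0 of 8 were divided, with the complement gene C1qa at 20.6 to 33.5 against 6.49 to 25.7. What part each cell type had in the class II levels was not tested.

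**Figure D2:**
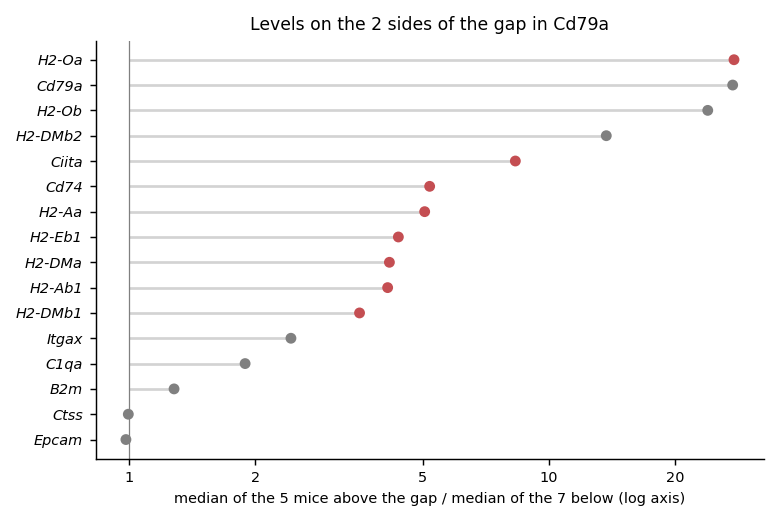
Ratio of the median level in the 5 mice above the gap in Cd79a to the median in the 7 mice below it, on a log axis; members in red, other genes in grey. H2-Oa (27.6) lies beside Cd79a (27.4), the chains, Cd74 and H2-DM lie between 3.54 and 5.2, and Ctss and Epcam lie near 1. The ratios of H2-Oa and Cd79a divide by low medians, 0.351 and 1.47.

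**Figure D3:**
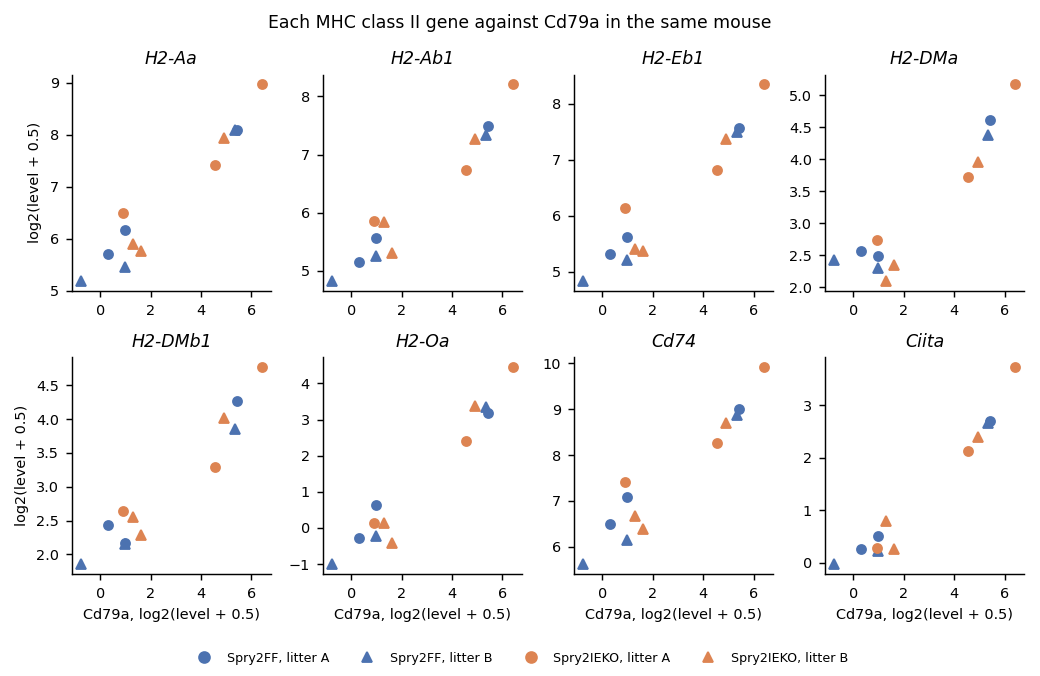
Level of each member against Cd79a in the same mouse, both as log2(level + 0.5), coloured by genotype with litter as symbol. The points form 2 clouds, 7 mice with Cd79a up to 2.6 and 5 mice from 23.2, and within the left-hand cloud the members spread without following Cd79a closely.

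Because the mice fell into separate clusters, no relation of a member with Cd79a was tested over all 12. Within the 7 mice below the gap, Pearson's r with Cd79a ran from -0.29 for H2-DMa to 0.69 for H2-Ab1, and Spearman's rho from -0.64 to 0.5. None of the 8 relations passed: the lowest exact permutation p was 0.0774 (adjusted over 8, 0.252) for r and 0.139 (adjusted, 0.806) for rho. Without the 2 mice farthest from the median of Cd79a, r lay between -0.6 and 0.11.

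The same 7 mice were then set against the summed dendritic cell, macrophage, interferon-γ axis and epithelial genes, 32 relations in all. H2-Ab1 rose with the dendritic cell genes, at r = 0.96 (exact permutation p = 0.000992, adjusted 0.0317) and rho = 0.96 (exact permutation p = 0.00278, adjusted 0.0296), and r was 0.87 without the 2 farthest mice. For H2-Aa r was 0.88 (exact permutation p = 0.00952, adjusted 0.0508) and rho 0.96 (exact permutation p = 0.00278, adjusted 0.0296). For H2-Eb1 r was 0.83 (exact permutation p = 0.00913, adjusted 0.0508) and rho 0.96 (exact permutation p = 0.00278, adjusted 0.0296). H2-Eb1 fell with the epithelial genes (r = -0.94, exact permutation p = 0.00198, adjusted 0.0317; rho = -0.89, exact permutation p = 0.0123, adjusted 0.0562), as did H2-Aa (r = -0.93, exact permutation p = 0.00397, adjusted 0.0423; rho = -0.89, exact permutation p = 0.0123, adjusted 0.0562), with r at -0.87 and -0.77 without the 2 farthest mice. No member passed against the macrophage genes (lowest adjusted exact permutation p 0.0522) or the interferon-γ axis (0.124). The dendritic cell sum was small, from 3.41 in Spry2FF mouse 9 to 9.86 in Spry2IEKO mouse 5, which also had the most macrophage signal at 114 and the least epithelial signal at 4365. Both of the highest dendritic cell sums, 9.86 and 9.21, were of Spry2IEKO mice, so these relations mix the genotypes, which were exchanged freely in the permutations. All sums share a library with the gene, as parts of one total, and within a litter too few of the 7 mice were left for a value.

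By genotype no member passed the test. All 8 means were higher in Spry2IEKO than in Spry2FF mice. However, 0 of 8 passed (limma, Benjamini-Hochberg over 15880 genes), where 0.0315% of all genes passed. An unadjusted p under 0.05 was found for 0 of 8 members and for 981 of all 15880 genes. The median log2 change of the members was 0.58 and that of all genes 0.01. H2-Aa had a median of 129.7 (53.7 to 499.9) in Spry2IEKO and of 61.3 (35.9 to 273) in Spry2FF mice, a log2 difference of 0.63 with a 95% interval from -0.77 to 2.03 (limma adjusted p = 0.908). Cd74 had a median of 239 (82.7 to 964) and of 113 (48.7 to 513), a difference of 0.69 from -0.82 to 2.19 (adjusted p = 0.907). H2-Oa differed by 0.74 with an interval from -1.39 to 2.87 (adjusted p = 0.923) and H2-DMa by 0.21 from -1.01 to 1.43 (adjusted p = 0.968). The other members lay between, at 0.47 to 0.59. Exact permutation p values over all splits of the mice ran from 0.364 for H2-Ab1 to 0.76 for H2-DMa. These intervals, on the log2(level + 0.5) scale, still hold a doubling of every member.

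The genotype values depended on the model and on the mice included. With Cd79a as a covariate the log2 differences lay between -0.32 for H2-DMa and 0.04 for H2-Ab1, with a median of -0.0041 and 0 of 8 passing (lowest limma adjusted p 0.928). The 95% interval for H2-Aa was then -0.4 to 0.41. Without the 5 mice above the gap, an analysis chosen after seeing the data, 3 Spry2IEKO and 4 Spry2FF mice remained. The median difference was then 0.37, with 7 of 8 positive and 0 of 8 passing, and 1 of 8, H2-Ab1, had an unadjusted p under 0.05 in limma (log2 difference 0.47, SE 0.201). Of all 15880 genes 594 had one in that fit.

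**Figure D4:**
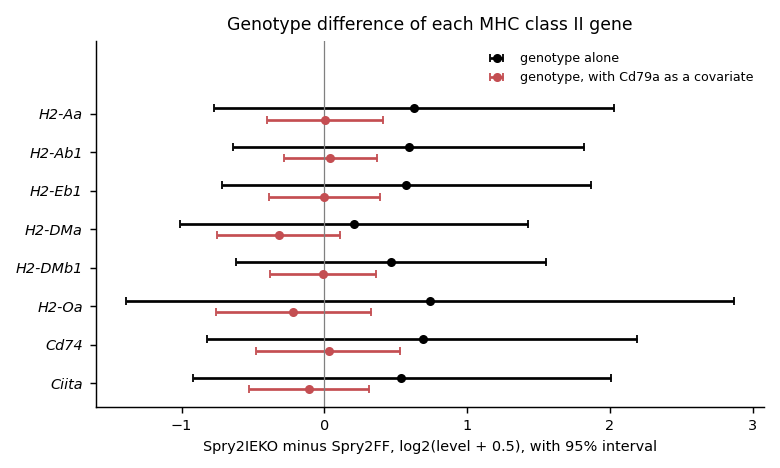
Difference of each member between Spry2IEKO and Spry2FF mice in limma on the log2(level + 0.5) scale with its 95% interval, for genotype alone (black) and with Cd79a as a covariate (red); n = 6 mice each. Every interval crosses 0, and the estimates fall from between 0.21 and 0.74 to between -0.32 and 0.04.

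Within litter A the 8 differences between genotypes were 0.61 to 1.15, and within litter B they were -0.24 to 0.37, H2-DMa being the negative one. The difference between litters of the genotype effect was tested as an interaction. Of the members 0 of 8 passed (every adjusted limma p 0.998), beside 0.0126% of all genes. At an unadjusted p under 0.05 there were 0 of 8, beside 665 of all 15880 genes. The members' median interaction of -0.69 turned sign without Spry2FF mouse 10 (0.24) and without Spry2IEKO mouse 4 (0.09). H2-Aa averaged 253 ± 217 in Spry2IEKO and 131 ± 122 in Spry2FF mice of litter A, and 119 ± 108 and 117 ± 135 in those of litter B (SD, n = 3 each).

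All 8 members had lower means in litter B than in litter A across genotypes, by 0.47 (H2-DMb1) to 0.97 (Cd74) on the log2 scale. Again 0 of 8 passed (lowest limma adjusted p 0.431, for Cd74), while 4.38% of all genes passed. At an unadjusted p under 0.05 in limma there were 0 of 8 members and 3475 of all 15880 genes. The median was -0.66 for the members and -0.05 for all genes. The column names of the 2 litters also begin with different numbers, and what these mark cannot be told apart from litter.

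H2-O restrains H2-DM, and B cells are the cells best known for making it. The ratio of H2-Oa to H2-DMa was 0.602, 0.36, 0.477, 0.659 and 0.376 in mice 4, 3, 10, 11 and 6, and 0 to 0.203 in the other 7, so that the sides did not overlap. By genotype the log2 ratio was -1.66 ± 0.93 in Spry2IEKO and -2.19 ± 0.91 in Spry2FF mice (SD, n = 6 each), a difference of 0.53 (exact permutation p = 0.338), and 0.49 and 0.56 within litters A and B. The ratio of Ciita to Cd74 likewise showed no genotype difference beyond the spread (log2 difference -0.14, exact permutation p = 0.578, n = 6 each).

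Transcripts of Cd74 were of 2 coding lengths. The invariant chain of 215 residues is the common form, and that of 279 residues carries an extra exon coding for a thyroglobulin-type domain. The longer form made up 14.7%, 18.0%, 18.0%, 18.4% and 21.5% of the Cd74 level in mice 4, 3, 10, 11 and 6, and 22.7% to 31.1% in the other 7, so each of the 5 mice was below each of the 7. This readout was chosen after its values had been seen. By genotype the share was 20.6% ± 3.37 in Spry2IEKO and 24.6% ± 5.73 in Spry2FF mice (SD, n = 6 each; exact permutation p = 0.152), a difference of -4.05 percentage points.

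**Figure D5:**
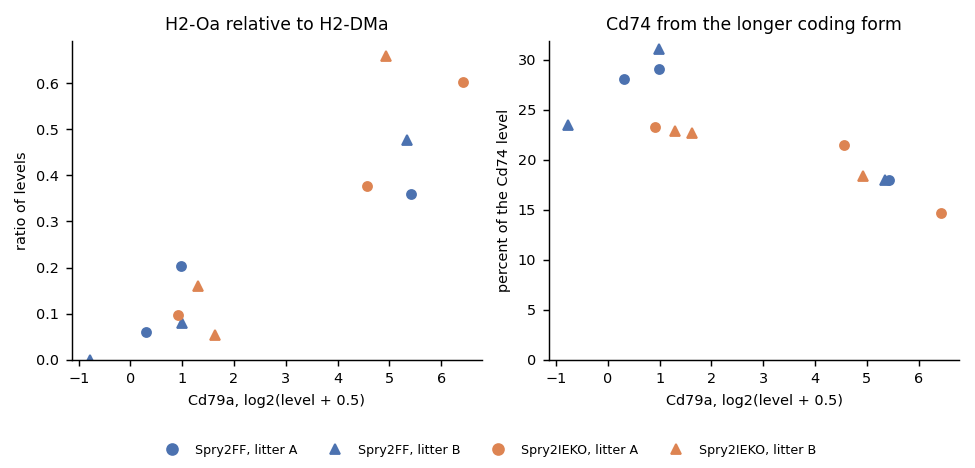
Ratio of the levels of H2-Oa and H2-DMa (left) and percent of the Cd74 level from the longer coding form (right) in each mouse, against Cd79a as log2(level + 0.5). The 5 mice with high Cd79a lie at 0.36 to 0.659 on the left, above the other 7, and at 14.7% to 21.5% on the right, below them.

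Of the other members, H2-Eb1 had a single transcript in the table, and H2-Aa-201 held 97.9% of H2-Aa. A transcript with no coding sequence in GENCODE M21 held 36.6% of H2-DMa, and coding transcripts made up 45.8% to 100% of that gene in individual mice. For Ciita, 84.1% of the mean level over the 12 mice came from Ciita-201. Its annotated start is 10488279 on chromosome 16, in the second of the start regions of the gene. In the 7 mice below the gap Ciita-201 was 0.305 to 0.68, where all of Ciita was 0.482 to 1.24. Ciita-204, which starts at 10489783, was 0 to 0.618 in those mice. Transcripts that begin at the first region reached at most 0.327 each in any mouse. Such shares rest on few reads where the gene is low, and the depth behind them is unknown.

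Few genes of the wider pathway were called. Of 9 regulators of class II promoters 0 were called by genotype: Rfx5, the DNA-binding subunit of RFX, was 9.01 ± 2.05 in Spry2IEKO and 7.94 ± 1.38 in Spry2FF mice (adjusted p = 0.907), and the NF-Y subunit Nfya 23.8 ± 2.77 and 26.2 ± 3.23 (limma adjusted p = 0.867, SD, n = 6 each). None of these 9 was divided between the 5 and the 7 mice, where Ciita was. Of the 3 other class II genes tested 0 were called, with H2-Ob at a log2 difference of 1.33 (SE 1.08, limma adjusted p = 0.888) and H2-DMb2 at 0.97 (SE 0.991, adjusted p = 0.907).

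Among 9 genes of class II peptide loading and turnover 0 were called by genotype, with a median log2 difference of -0.09. Ctss, the protease that cuts the invariant chain, was 381 to 588 over the 12 mice, and its medians on the 2 sides of the gap had a ratio of 0.996. March1, the ubiquitin ligase that removes class II molecules from the surface, was the exception in this list, at 2.52 to 7.16 in the 5 mice and 0.615 to 1.19 in the 7. By litter 4 of the 9 were lower in litter B and 0 higher, where 3.31% of all genes were lower: the proteases Ctsd (log2 difference -0.29, limma adjusted p = 0.0304), Ctsb (-0.30, 0.0339) and Lgmn (-0.38, 0.0379), and Sppl2a, which cleaves the remnant of the invariant chain in the membrane (-0.30, 0.0178).

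In the interferon-γ axis 0 of 7 genes tested were called by genotype (median -0.04). Ifng itself was between 0 and 0.108, and Irf1, an interferon target, was 97.8 ± 10.3 in Spry2IEKO and 107 ± 15.2 in Spry2FF mice (SD, n = 6 each). By litter, Ifngr2 (-0.26, limma adjusted p = 0.0337) and Jak1 (-0.27, 0.0467) were lower in litter B. Of 11 MHC class I genes 0 were called by genotype, the largest differences being those of Nlrc5, the class I counterpart of Ciita (0.63, limma adjusted p = 0.826), and Psmb10 (-0.32, 0.753), and 1, Erap1, was lower in litter B (-0.44, 0.034). B2m was 495 to 914 in the 5 mice and 363 to 605 in the 7. Of 4 costimulation genes tested 0 were called, with Cd86 at 0.38 (limma adjusted p = 0.894).

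Cell type lists gave 0 calls by genotype as well. The median log2 difference was 1.19 over 9 B cell genes, 0.92 over 7 follicle genes, 0.61 over 5 plasma cell genes and 0.41 over 6 T cell genes. It was 0.31 over 7 dendritic cell genes, 0.23 over 8 macrophage genes and -0.21 over 7 epithelial genes. Outside these it was 1.15 over 3 fat genes and -0.14 over 4 smooth muscle genes, and the median of all genes was 0.01. Of the 7 epithelial genes 4 had an unadjusted p under 0.05 in limma, where 981 of all 15880 genes had one. The summed B cell level was 8.36 to 437 in Spry2IEKO and 2.32 to 197 in Spry2FF mice. By litter, the macrophage gene Cd68 (-0.87, limma adjusted p = 0.0257) and the epithelial cadherin Cdh1 (-0.22, 0.0282) were lower in litter B. Medians by litter were -0.74 over the 8 macrophage genes and 0.12 over the 7 epithelial genes, so Cdh1 ran against the median of its list.

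The 10 genes whose pattern over the 12 mice was most like the mean of the 8 members, by Pearson's r of log2(level + 0.5), were Nckap1l (0.995), Cd52, Arhgap45 and Il2rg (each 0.993), Cd53 and Tbc1d10c (0.992), Dusp2 and Ikzf1 (0.991), Apbb1ip (0.99) and Arhgdib (0.989). These r describe the division of the mice into 5 and 7 more than anything within it, and carry no test. Cd52, a surface glycoprotein of lymphocytes, was 75.3 to 310.4 in the 5 mice and 9.47 to 24.3 in the 7. Cd79a stood at place 69 of this order (0.974), H2-DMb2 at 46, H2-Ob at 48, Flt3 at 105 and C1qa at 407.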

How the data were processed

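RNA from distal colonic homogenates of 12 mice was sequenced, and reads were pseudoaligned by the authors with kallisto; CASAVA, sleuth and the build mm10 are also named in the submitters' processing notes. The labels and the methods differ on paired or single reads. The deposited signal is TPM per transcript, with a further scaling between mice that is inferred. Read counts behind the signal are unknown. Columns of the authors' own tests were not used. Of 113974 entries, 781 repeats were dropped (0 among the members), transcripts were summed to 35241 genes, and 27 of 28 names turned into dates were restored. Genes averaging 0.5 or more over the mice (15880) were tested on log2(level + 0.5) with limma 3.58.1 (R 4.3.3; trend, Benjamini-Hochberg, threshold 0.05) for genotype, litter and their interaction; single values were tested by exact permutation in Python 3.11.15, two-sided throughout. On simulated data for the genotype comparison over all 15880 genes, 70.5% of the genes given a log2 change of 1 were called. This is no figure for the members, whose standard errors by genotype were 0.503 (H2-DMb1) to 0.987 (H2-Oa). The power for them was not estimated. Nothing says that a mouse was sequenced more than once; each was 1 sample.

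The members and gene lists were chosen with earlier results of these data known. Values in the text are of the members, Cd79a, Spry2, the 2 highest and the 2 most changed genes by genotype of each list and the 10 genes most like the members; others (H2-Eb2, H2-Ea-ps, Flt3, Ifng, genes called by litter) were named after their values were seen. Positions are from GENCODE M21. Alternatives were other pseudocounts, filters, scalings, covariates, subsets and leaving out each mouse.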

Additional observations from a re-analysis of the deposited data

Results flagged for a closer look

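In 34 groups of 6 mice examined for 1 value far from the others, 5 had one, where chance gives about 1 in 20. Spry2IEKO mouse 4 stood above its group for H2-DMa (35.5, the others 3.76 to 15), Ciita (12.7, the others 0.698 to 4.76) and Cd79a (85.5, the others 1.39 to 29.9). In Spry2IEKO mouse 12 the log2 ratio of H2-Eb1 to H2-Ab1 was -0.43, against 0.0611 to 0.278 in the other 5. In Spry2IEKO mouse 5, the mouse with the most class II signal among those with little Cd79a, the log2 ratio of Ciita to Cd74 was -7.15, against -6.31 to -5.88.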

How the results depend on the processing

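Of the 8 members 0 passed by genotype, by litter or by their interaction under every alternative run, leaving out each mouse included, and 0 passed in the exact tests. Directions by litter held in all 176 alternative values, but the members' median of -0.66 became -0.25 with Cd79a as a covariate, -0.33 without Spry2IEKO mouse 4, -0.39 without Spry2FF mouse 3 and -1.04 without Spry2FF mouse 10. In the first and the last of these 1 of 8 members, Cd74, had an unadjusted p under 0.05 in limma. Of all genes 3316 of 15879 and 3654 of 15880 had one there. By genotype 11 values turned sign and 213 did not. With Cd79a as a covariate they were H2-Eb1 (-0.0018), H2-DMa (-0.32), H2-DMb1 (-0.0065), H2-Oa (-0.22) and Ciita (-0.11), and with the B cell score H2-DMa (-0.31), H2-Oa (-0.17) and Ciita (-0.08). H2-DMa turned also in litter B alone (-0.24), without the 5 mice above the gap (-0.05) and without Spry2IEKO mouse 4 (-0.16), its range without 1 mouse being -0.16 to 0.51. The cause was not tested. The members' median of 0.58 was 0.20 without Spry2IEKO mouse 4, 0.34 without Spry2FF mouse 9, 0.87 without Spry2FF mouse 10 and 0.89 without Spry2FF mouse 3; 0.91 in litter A, 0.30 in litter B, 0.36 with sex as a covariate and 0.73 in females. Over all genes, calls by genotype were 5 and ran from 1 to 11, the latter without Spry2IEKO mouse 8. By litter 696 (171 higher in B) became 1458 (105 higher) when each mouse was rescaled to the same total, 477 (209 higher) with quantile normalization, 422 without the filter and 178 without Spry2IEKO mouse 5. The interaction gave 2, and 0 to 5 elsewhere. The members' median interaction of -0.69 ran from -1.42 without Spry2FF mouse 3 to 0.24 without Spry2FF mouse 10. The ratio of H2-Oa to H2-DMa differed by 0.53, by 0.88 with a pseudocount of 0.1 (H2-Oa is listed at 0 in Spry2FF mouse 9), by 0.28 to 0.76 without 1 mouse and by 0.22 without the 5. The Cd74 form share differed by -5.38 to -2.75 points without 1 mouse. The relations with Cd79a were not run by litter, by genotype or as deviations, since the mice fell into separate clusters. No paired analysis was possible because the genotypes share no replicate numbers. Read depth is unknown.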
